A study of Mus musculus with 6 samples.

Results

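The Toll-like receptors examined were the 10 genes Tlr1 to Tlr9 and Tlr13, chosen by gene symbol from the deposited table. All 10 were found among its 14918 genes, and all 10 passed the low-count filter that left 14361 genes for testing. RNA came from liver macrophages of C57BL/6 mice given a high fat diet (HFD, 3 mice) or a normal diet (ND, 3 mice) for 18 weeks, all about 6 weeks old at the start. The diet was the only labelled difference, and no transgene or deletion is given for either group. The sources used here do not give the isolation of the macrophages, so each library is a bulk population in which fewer cells of a type and less RNA per cell cannot be told apart. The comparison asks how the diet changed the RNA of these cells.

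Toll-like receptors are membrane proteins that bind conserved molecules of microbes, and some products of damaged cells, through leucine-rich repeats, and signal through a cytoplasmic TIR domain. Tlr1, Tlr2, Tlr4, Tlr5 and Tlr6 act mainly at the plasma membrane on lipopeptides, lipopolysaccharide and flagellin, while Tlr3, Tlr7, Tlr8, Tlr9 and Tlr13 act in endosomes on nucleic acids. Most signal through the adaptor MyD88, Tlr3 signals through TRIF (the Ticam1 product), and Tlr4 uses both. In the liver, Kupffer cells (the resident macrophages of the sinusoids) meet bacterial products that reach the organ in portal blood.

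The libraries held 17470439 to 23610956 counted reads, and the members had between 34 reads (Tlr5 in HFD replicate 2) and 4360 reads (Tlr7 in HFD replicate 3). Kupffer cell markers were abundant in all 6 libraries: the lectin gene Clec4f stood at 5834 to 7442 CPM (counts scaled to library size) in HFD mice and 5965 to 10382 CPM in ND mice. The summed level of 18 hepatocyte markers was 5543 to 9344 CPM in HFD mice and 626 to 2996 CPM in ND mice, and that of 9 monocyte markers 1416 to 1762 CPM and 493 to 801 CPM, in the same order. ND replicate 2 had the highest macrophage score of the 6 libraries (mean log2 CPM of 10 macrophage markers, 10.41) and ND replicate 3 the lowest (9.86), against 10.16 to 10.27 in HFD mice. ND replicate 3 also held 4062 CPM of 9 sinusoidal endothelial markers, against 1252 to 2197 CPM in the other libraries. The part of these differences in the results that follow was not tested, except where a value is given.

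Tlr1 and Tlr6 lie next to each other on chromosome 5 and share long identical stretches, which bears on how their reads were counted. Of the 3025 bases of the Tlr1 transcript that was searched (GENCODE, GRCm38), 748 (24.7%) lay in runs of at least 50 bases that also occur in Tlr6. The longest run was 229 bases, inside the coding part of both genes. It is shown with 15 bases on either side, 259 bases in all, from coding base 1453 to 1711 of 2385 in Tlr1 (chr5:64925522-64925780, minus strand) and from coding base 1492 to 1750 of 2418 in Tlr6 (chr5:64953813-64954071, minus strand), and capitals mark the 2 bases that differ between the genes.
Tlr1: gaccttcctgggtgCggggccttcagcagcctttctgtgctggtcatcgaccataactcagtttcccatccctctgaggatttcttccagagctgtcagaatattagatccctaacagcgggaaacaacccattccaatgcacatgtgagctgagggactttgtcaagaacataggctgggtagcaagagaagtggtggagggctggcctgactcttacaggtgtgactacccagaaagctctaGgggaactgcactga
Tlr6: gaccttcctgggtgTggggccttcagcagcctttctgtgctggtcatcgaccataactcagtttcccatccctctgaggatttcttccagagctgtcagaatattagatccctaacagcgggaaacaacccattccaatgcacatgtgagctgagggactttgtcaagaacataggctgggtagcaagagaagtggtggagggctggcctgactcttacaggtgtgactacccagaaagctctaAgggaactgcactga
The sources used here do not give how reads that match both genes were counted, so the split between Tlr1 and Tlr6 is uncertain and their sum is given beside it. In the same search, Tlr2, Tlr4, Tlr5, Tlr7, Tlr8, Tlr9 and Tlr13 shared no run of 50 bases with any other annotated transcript, while Tlr6 also shared 51 bases outside its coding part with Ctsq, on the same strand. Tlr3 shared 117 bases at its 5' end with Gm45542, a gene annotated on the opposite strand, and no step of the library protocol keeps the strand.

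Promoter sequences in RefSeq (GRCm38.p6) were matched for 8 of the 10 genes, Tlr4 and Tlr7 being without an entry. Shown are those of Tlr1 (the upstream window) and Tlr9, the members with the largest diet differences. Each runs from 250 bases before the transcription start to 30 bases after it. Capitals mark GAGGAAGT on either strand, a form of the site bound by the myeloid factor PU.1. The motif was chosen after the values and the sequences had been seen.
Tlr1 (chr5:64933529-64933808, minus strand): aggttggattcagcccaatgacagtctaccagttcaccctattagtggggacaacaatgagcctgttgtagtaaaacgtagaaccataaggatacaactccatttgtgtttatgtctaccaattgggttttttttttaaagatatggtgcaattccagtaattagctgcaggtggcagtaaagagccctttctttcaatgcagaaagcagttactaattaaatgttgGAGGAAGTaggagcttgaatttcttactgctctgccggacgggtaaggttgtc
Tlr9 (chr9:106222348-106222627, plus strand): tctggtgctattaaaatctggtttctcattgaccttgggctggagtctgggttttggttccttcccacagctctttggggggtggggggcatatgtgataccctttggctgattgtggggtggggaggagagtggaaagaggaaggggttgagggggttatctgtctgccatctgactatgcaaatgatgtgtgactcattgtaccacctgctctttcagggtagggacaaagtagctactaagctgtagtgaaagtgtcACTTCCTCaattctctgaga
GAGGAAGT was present in 2 of the 10 promoter windows of the 8 genes, the upstream window of Tlr1 and that of Tlr9. It was present in 2.82% of all 32851 windows of this length. Because the motif was chosen after these sequences had been seen, setting these shares side by side is no test. The other Tlr1 window (chr5:64932670-64932949) had no match. That window holds the 5' end of the gene as deposited (64932761, minus strand), while the window shown lies outside the deposited gene. The shorter GAGGAA, which is part of the longer motif, was present in 4 of the 10 windows, those of Tlr1, Tlr8, Tlr9 and Tlr13, and in 26% of all windows. These matches describe the letters only, and binding was not measured.

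Levels of different genes are compared as FPKM (reads scaled to the length of the gene and to the depth of the library) from the deposited table. Tlr2, which pairs with Tlr1 or Tlr6 to bind bacterial lipopeptides, had the highest mean over the 6 libraries, 54.0 FPKM. It was followed by Tlr8 (43.9 FPKM), Tlr7 (40.9 FPKM) and Tlr13 (34.0 FPKM), then by Tlr1 (22.9 FPKM) and the lipopolysaccharide receptor Tlr4 (19.8 FPKM). Tlr9 (8.93 FPKM), Tlr3 (8.20 FPKM) and Tlr6 (6.16 FPKM) were lower, and the flagellin receptor Tlr5 was lowest at 0.925 FPKM. Several neighbours in this order were not separated. Tlr2 stood above Tlr8 in 4 of the 6 libraries, Tlr1 above Tlr4 in 3, Tlr9 above Tlr3 in 3, and Tlr8 above Tlr7 and Tlr3 above Tlr6 in 5. Tlr7 stood above Tlr13, Tlr13 above Tlr1, Tlr4 above Tlr9 and Tlr6 above Tlr5 in all 6. Tlr2 lay on average at the 91.8th percentile of the FPKM values of all genes in the table, and Tlr5 at the 19th.

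**Figure D1:**
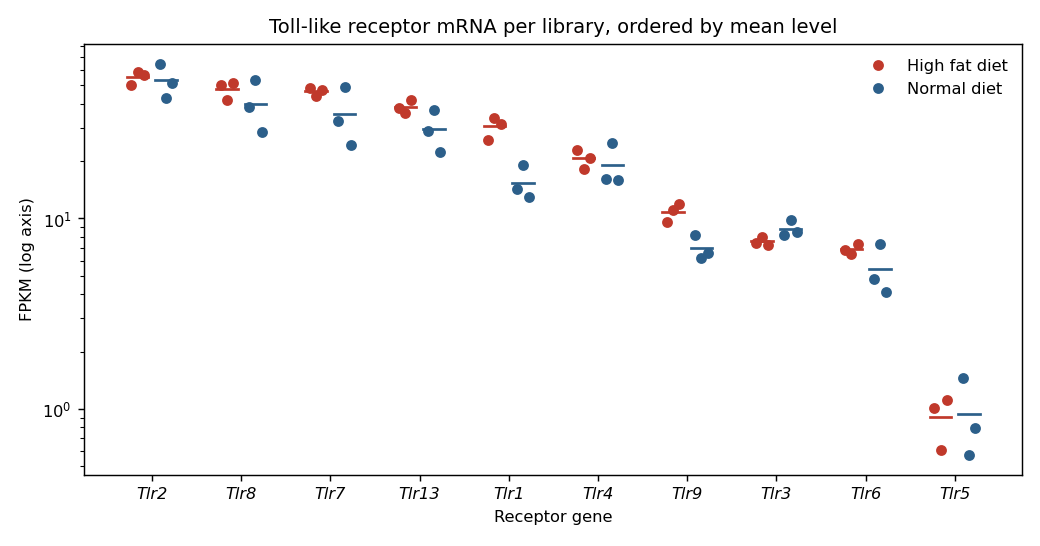
FPKM (log axis) of each Toll-like receptor gene in the 3 HFD libraries (red) and the 3 ND libraries (blue), with a bar at each group mean and genes ordered by mean level. Tlr1 and Tlr9 have all red points above all blue points, Tlr3 has all red points below, and Tlr5 is lowest at 0.925 FPKM on average.

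Together the 10 mRNAs summed to 260, 259 and 277 FPKM in HFD replicates 1 to 3 and to 218, 250 and 175 FPKM in ND replicates 1 to 3. All 3 HFD sums lay above the 3 ND sums, the nearest being ND replicate 2. The 5 endosomal receptors made up 59.0%, 54.4% and 57.7% of that sum in HFD mice and 53.3%, 62.2% and 51.4% in ND mice, so the groups overlapped in this share.

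Between the diets, 8 of the 10 receptors stood higher in HFD mice and 2 stood lower, with a median log2 fold change of 0.27 against 0.00 for all genes tested. None passed an edgeR adjusted p of 0.05, a threshold passed by 0.634% of the genes tested (0.446% higher and 0.188% lower). By unadjusted p under 0.05 there were 3 members, Tlr1 and Tlr9 higher and Tlr3 lower, against 18.6% of all genes (10.2% higher and 8.40% lower). In the same 3 members the 3 libraries of one diet did not overlap those of the other, as in 25.3% of all genes (14.5% higher and 10.8% lower). DESeq2 called 2 members, Tlr1 and Tlr9, both higher, where it called 8.08% of all genes (4.96% higher and 3.12% lower). The authors' deposited table calls the same 2 and has 7.98% of its genes under an adjusted p of 0.05 (4.97% higher and 3.02% lower). Limma voom called 0 members and 0.564% of genes (0.383% higher and 0.181% lower), with 3 members and 18.7% of genes at an unadjusted p under 0.05.

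**Figure D2:**
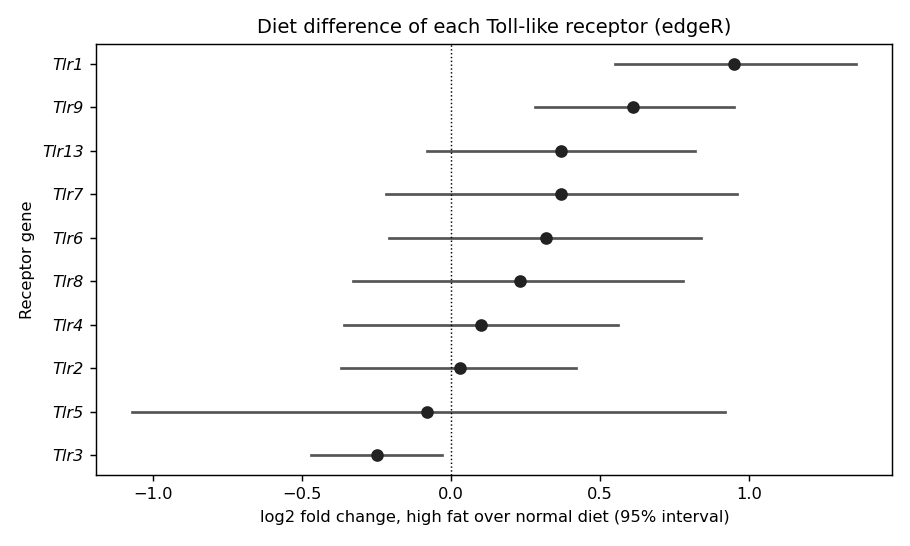
The log2 fold change of each Toll-like receptor, high fat over normal diet, from edgeR over 3 libraries per diet (points), with 95% intervals (lines). The intervals of Tlr1, Tlr9 and Tlr3 leave out 0, with no adjustment over genes, and the widest is that of Tlr5, from -1.07 to 0.92.

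Tlr1 (ENSMUSG00000044827, chromosome 5, 64924811 to 64932761, minus strand, mm10) had the largest difference of the 10. Its product joins that of Tlr2 to bind triacylated lipopeptides. It was at 68.2, 88.9 and 83.1 CPM in HFD replicates 1 to 3, and at 39.0, 50.7 and 34.2 CPM in ND replicates 1 to 3. Every HFD library lay above every ND library. The means were 80.0 ± 10.7 CPM in HFD mice and 41.3 ± 8.49 CPM in ND mice (SD, n = 3), 1.94-fold, with a log2 fold change of 0.95 ± 0.17 (SE), a 95% interval of 0.55 to 1.36 and an edgeR adjusted p of 0.0659. The adjusted p was 0.000180 in DESeq2 and 0.000212 in the authors' deposited table. Over the 16 alternatives run it lay between 0.000180 and 0.573, under 0.05 in 3, and the difference was positive in all 16. With the hepatocyte score as a covariate, where 0% of genes were called, the log2 fold change was 0.96 ± 0.29 (SE, adjusted p = 0.573). This score did not overlap between the diets (6.96 to 7.76 in HFD mice and 3.91 to 6.11 in ND mice). With so few libraries, a fit with it separates score and diet poorly, for this and every other gene. Without ND replicate 2, Tlr1 passed in edgeR at a log2 fold change of 1.12 (adjusted p = 0.00812).

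Tlr2 (ENSMUSG00000027995, chromosome 3, 83836273 to 83841767) was at 149, 176 and 169 CPM in HFD mice and at 201, 130 and 154 CPM in ND mice. The highest and the lowest of its 6 values were both in ND mice. Its log2 fold change was 0.03 ± 0.16 (SE), with a 95% interval of -0.37 to 0.42. With the hepatocyte score in the model it was 0.48 ± 0.15 (SE, edgeR adjusted p = 0.585), outside that interval. Tlr6 (ENSMUSG00000051498, chromosome 5, 64953106 to 64960048), the partner of Tlr2 for diacylated lipopeptides, was at 17.7, 16.7 and 18.9 CPM in HFD mice and at 12.9, 19.3 and 10.6 CPM in ND mice. The groups overlapped through ND replicate 2 alone, and the log2 fold change was 0.32 ± 0.22 (SE, edgeR adjusted p = 0.485). Without that library it was 0.59 and passed (adjusted p = 0.0470). The summed level of Tlr1 and Tlr6 was 85.9, 106 and 102 CPM in HFD mice and 51.9, 70.0 and 44.8 CPM in ND mice, again without overlap. This sum does not change with how common reads are divided between the genes, but would if such reads were dropped or counted for both. Most of the sum came from Tlr1 in every library.

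The balance of these partners was followed as ratios of FPKM within each library. Tlr1 over Tlr2 was 0.519, 0.575 and 0.557 in HFD mice and 0.220, 0.444 and 0.253 in ND mice. Tlr1 over Tlr6 was 3.77, 5.22 and 4.30 in HFD mice and 2.96, 2.58 and 3.17 in ND mice. Neither ratio overlapped between the diets, whereas Tlr6 over Tlr2, at 0.138, 0.110 and 0.130 against 0.0743, 0.172 and 0.0798, did. On the log2 scale the differences were 0.92 for Tlr1 over Tlr2, 0.60 for Tlr1 over Tlr6 and 0.31 for Tlr6 over Tlr2. In two-sided exact permutation tests over the libraries (3 against 3, where the smallest possible p is 0.1) these had p = 0.1, 0.1 and 0.4. Adjusted over the 5 ratios tested, the values were 0.167, 0.167 and 0.5, so none could or did pass 0.05. The other ratios tested were Tlr7 over Tlr8 and Tlr9 over Tlr7. Tlr7 over Tlr8 did not overlap either (0.964, 1.05 and 0.923 in HFD mice, 0.851, 0.916 and 0.856 in ND mice), with the same permutation p of 0.1 (adjusted 0.167). Tlr9 over Tlr7 overlapped (permutation p = 0.8).

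Tlr4 (ENSMUSG00000039005, chromosome 4, 66827584 to 66930284), which binds lipopolysaccharide with the Ly96 product MD-2, was at 93.1, 73.4 and 84.2 CPM in HFD mice. In ND mice it was at 67.4, 102 and 65.1 CPM. ND replicate 2 was the highest of all 6 libraries and the other 2 ND libraries the lowest. The log2 fold change was 0.10 ± 0.19 (SE), with a 95% interval of -0.36 to 0.56, and its sign changed in 4 of the 16 alternatives. Tlr5 (ENSMUSG00000079164, chromosome 1, 182954788 to 182976044) was near the lower end of what was counted, with 67, 34 and 84 reads in HFD mice and 95, 35 and 51 in ND mice. Its log2 fold change of -0.08 ± 0.42 (SE) had a 95% interval of -1.07 to 0.92, the widest of the 10, and no difference was detectable at this depth and spread.

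Tlr9 (ENSMUSG00000045322, chromosome 9, 106222598 to 106226883), the endosomal receptor for unmethylated CpG DNA, was at 33.2, 38.2 and 41.2 CPM in HFD mice and at 29.2, 21.8 and 22.7 CPM in ND mice. The groups did not overlap, and ND replicate 1 came nearest. The means were 37.5 ± 4.02 CPM in HFD mice and 24.5 ± 4.02 CPM in ND mice (SD, n = 3), 1.53-fold, with a log2 fold change of 0.61 ± 0.14 (SE), a 95% interval of 0.28 to 0.95 and an edgeR adjusted p of 0.0971. The adjusted p was 0.0137 in DESeq2 and 0.0144 in the authors' deposited table, and lay between 0.0137 and 0.275 over the 16 alternatives. Adding the hepatocyte score to the model gave a log2 fold change of 0.99 ± 0.14 (SE, edgeR adjusted p = 0.258). B cells and plasmacytoid dendritic cells, which also express Tlr9, had summed markers of 271 to 329 and 100 to 119 CPM in HFD mice, against 248 to 318 and 105 to 137 CPM in ND mice. Both ranges overlapped between the diets, but most of each came from a few genes, Tcf4 for the plasmacytoid list and Ighm and Cd22 for the B cell list. Within the lists, the B cell receptor gene Cd79b stood higher in HFD mice without overlap (log2 fold change 0.81 ± 0.19, SE, edgeR adjusted p = 0.0971, DESeq2 0.00734) and the chemokine receptor gene Ccr9 lower without overlap (-0.84 ± 0.30, edgeR adjusted p = 0.204). The part of these cells in the Tlr9 values was not tested.

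Tlr3 (ENSMUSG00000031639, chromosome 8, 45395665 to 45410608), which binds double-stranded RNA, was the member that stood lower in HFD mice without overlap. It was at 31.9, 34.4 and 31.2 CPM in HFD mice and at 36.6, 42.6 and 36.5 CPM in ND mice. The log2 fold change was -0.25 ± 0.09 (SE), a 1.19-fold lower level, with a 95% interval of -0.47 to -0.03 and an edgeR adjusted p of 0.224. It was not called by DESeq2 (adjusted p = 0.278) or in the authors' deposited table (0.309), and stayed negative in all alternatives with a range of -0.32 to -0.18. Markers (6 genes) of cross-presenting conventional dendritic cells, which are known for high Tlr3, summed to 772 to 827 CPM in HFD mice. In ND mice the sum was 890 to 1229 CPM, so the HFD range lay below the ND range. Within ND mice the orders differed. ND replicate 2 had the highest Tlr3 but the lowest sum (890 CPM, against 1229 and 1172 CPM in ND replicates 1 and 3). Within HFD mice, replicate 2 was highest in both. Most of the sum came from Wdfy4 (means of 354 CPM in HFD and 442 CPM in ND mice) and Irf8 (363 and 530 CPM). Irf8 is also counted below as a transcription factor. All 6 markers were below 0 in log2 fold change, but Wdfy4 and Batf3 (-0.18 ± 0.13, SE) overlapped between the diets. The integrin gene Itgae was the only marker of this list called in edgeR (log2 fold change -2.13, adjusted p = 0.0231). The part of these cells in the Tlr3 values was not tested.

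The X-linked RNA sensors Tlr7, Tlr8 and Tlr13 had a common pattern over the libraries (Pearson's r of log2 CPM between 0.95 and 0.98). The pattern was not particular to them. Tlr6, on chromosome 5, had r = 0.99, 0.96 and 0.98 with these 3 genes, and Tlr4 had 0.84, 0.88 and 0.76. Tlr7 (ENSMUSG00000044583, chromosome X, 167304929 to 167330558), a receptor for single-stranded RNA, was at 186, 169 and 184 CPM in HFD mice and at 131, 192 and 94.6 CPM in ND mice. Tlr8 (ENSMUSG00000040522, chromosome X, 167242696 to 167264329), its neighbour, which senses RNA fragments in humans, was at 170, 143 and 175 CPM in HFD mice and at 135, 184 and 97.2 CPM in ND mice. Tlr13 (ENSMUSG00000033777, chromosome X, 106143204 to 106160493), which senses bacterial ribosomal RNA in mice, was at 154, 145 and 169 CPM in HFD mice and at 119, 152 and 90.0 CPM in ND mice. In each, ND replicate 2 lay among or above the HFD libraries, while ND replicates 1 and 3 lay below all of them. The log2 fold changes were 0.37 ± 0.24, 0.23 ± 0.23 and 0.37 ± 0.19 (SE), with 95% intervals of -0.22 to 0.96, -0.33 to 0.78 and -0.08 to 0.82 and edgeR adjusted p-values of 0.470, 0.643 and 0.348. Without ND replicate 2, Tlr7 passed at 0.66 (adjusted p = 0.0435), while Tlr8 at 0.47 (0.138) and Tlr13 at 0.56 (0.0575) did not.

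The members varied more among the ND libraries. The coefficient of variation of CPM was larger in ND mice than in HFD mice for all 10 members, and for 69.4% of all genes tested. For Tlr7 it was 5.03% in HFD mice and 35.4% in ND mice, for Tlr6 6.31% and 31.6%, and for Tlr1 13.3% and 20.6%. Within the ND group, replicate 2 was highest and replicate 3 lowest for 7 members, Tlr1, Tlr3, Tlr4, Tlr6, Tlr7, Tlr8 and Tlr13. Tlr2, Tlr5 and Tlr9 had the other order, with replicate 1 highest and replicate 2 lowest. The macrophage score had the order of the first group, with replicate 2 at 10.41, replicate 1 at 10.13 and replicate 3 at 9.86. With that score as a covariate, chosen after the data had been seen, the log2 fold change was 0.89 for Tlr1 (adjusted p = 0.0139, with 3.59% of all genes called, 2.24% higher and 1.34% lower), and 5 members had an unadjusted p under 0.05, as had 21.2% of all genes.

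**Figure D3:**
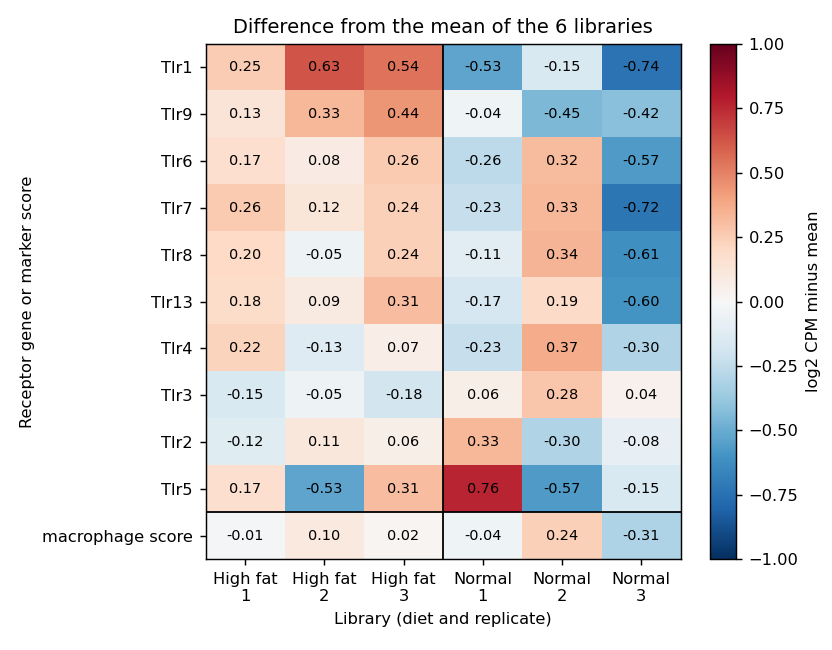
Log2 CPM of each Toll-like receptor in each library, as the difference from that gene's mean over the 6 libraries, with the macrophage marker score in the last row; HFD libraries are left of the line and ND libraries right of it. Tlr6, Tlr7, Tlr8 and Tlr13 are low in ND replicate 3 (-0.57 to -0.72) and high in ND replicate 2 (0.19 to 0.34), as is the score (-0.31 and 0.24).

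Leaving out ND replicate 2 changed the calls more than any other library. edgeR then called 3 members, Tlr1, Tlr6 and Tlr7, all higher in HFD mice, where 9.44% of all genes were called (3.54% higher and 5.90% lower). With any other library left out it called 0 members. The share of all genes called was then 0.0275% without HFD replicate 1, 0.0137% without HFD replicate 3 and 0% without HFD replicate 2 or ND replicate 1. It was 0.151% without ND replicate 3 (0.124% higher and 0.0275% lower). In these fits 2 or 3 members had an unadjusted p under 0.05, against 12.1% to 16.8% of all genes. The sign stayed positive with each library left out for Tlr1, Tlr6, Tlr7, Tlr8, Tlr9 and Tlr13 and negative for Tlr3. It changed for Tlr2, Tlr4 and Tlr5.

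**Figure D4:**
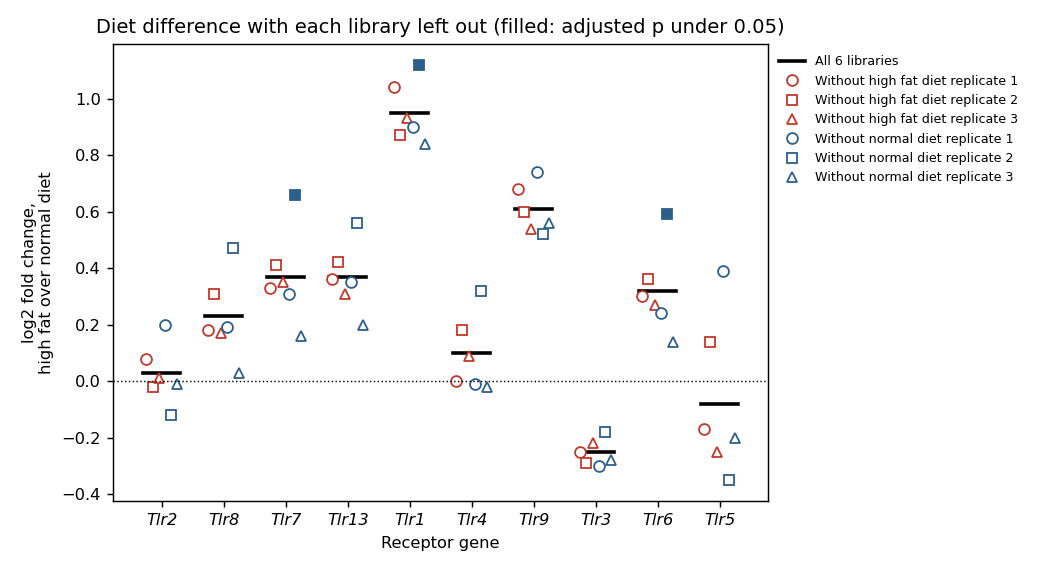
The log2 fold change of each Toll-like receptor, high fat over normal diet, with all 6 libraries (black bar) and with each library left out in turn (red, high fat diet; blue, normal diet; filled symbols have an edgeR adjusted p under 0.05). Filled symbols are those of Tlr7, Tlr1 and Tlr6 without ND replicate 2, at 0.66, 1.12 and 0.59.

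For the 2 members of smallest p and the 2 of highest level, the genes with the most similar pattern over the 6 libraries were taken by Pearson's r of log2 CPM among the 10538 genes averaging 5 CPM or more. The nearest to Tlr1 were Slx4, Fem1a and Ssh3 (0.993, 0.992 and 0.991). Those nearest to Tlr9 were Dock2, Ncapg2 and Ints7 (0.998, 0.993 and 0.993). For Tlr2 they were Sh3bgrl3, Slc39a6 and Rpl19-ps11 (0.980, 0.978 and 0.974), and for Tlr8 Stk38, Txnrd2 and Pkib (0.998, 0.993 and 0.992). These are descriptions over 6 libraries, among many genes: 104 exceeded 0.95 for Tlr1, 43 for Tlr9, 9 for Tlr2 and 78 for Tlr8.

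Around the receptors, 7 lists of pathway genes were read from the same test. Of 8 endogenous ligand genes tested, 2 rose in edgeR and none fell, where 0.446% of all genes rose and 0.188% fell. DESeq2 called 4 higher and 1 lower, against 4.96% and 3.12% of all genes. The median log2 fold change was 0.63, against 0.00 for all genes. Only 4 of the 8 were above 0, and the median fell in a gap between Hmgb1 (-0.08) and Fgb (1.34). The 2 that rose in edgeR were S100a8 and S100a9, whose products form calprotectin, a Tlr4 ligand. S100a8 was at 16.8, 13.5 and 14.6 CPM in HFD mice and at 2.17, 1.84 and 3.78 CPM in ND mice (log2 fold change 2.52 ± 0.28, SE, edgeR adjusted p = 0.0351). S100a9 was at 31.9, 23.6 and 27.5 CPM in HFD mice and at 3.03, 2.26 and 5.17 CPM in ND mice (2.98 ± 0.31, adjusted p = 0.0351). Both are also neutrophil markers, a list of 10 genes with a median log2 fold change of 2.44, of which 3 rose: these 2 and the collagenase gene Mmp8 (2.63 ± 0.35, SE, edgeR adjusted p = 0.0430). The list summed to 301 to 350 CPM in HFD mice and 206 to 221 CPM in ND mice, most of it from Csf3r, the receptor gene for a granulocyte growth factor (log2 fold change 0.24 ± 0.08, SE). The part of neutrophils in the ligand values was not tested. Both calls ended (adjusted p between 0.0926 and 0.177) without any HFD replicate or ND replicate 1. They also ended with the hepatocyte score in the model (adjusted p = 0.392 for both), where 0% of all genes were called. The proteoglycan gene Vcan, a Tlr2 ligand and monocyte marker, averaged 20.6 ± 8.79 CPM in HFD mice and 2.74 ± 1.60 CPM in ND mice (SD, n = 3). It did not pass in edgeR (adjusted p = 0.0800) but did in DESeq2 (adjusted p = 1.24e-06). Fgb, a fibrinogen chain made by hepatocytes, averaged 167 ± 59.7 and 66.1 ± 37.2 CPM, and the chaperone gene Hsp90aa1 358 ± 43.4 and 502 ± 44.1 CPM, in the same order, and neither passed in edgeR (adjusted p = 0.247 and 0.106). DESeq2 called Fgb higher (adjusted p = 0.047) and Hsp90aa1 lower (0.00667), and neither overlapped between the diets.

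Of 6 ligand-binding co-receptor genes tested, Cd36 rose and none fell, where 0.446% of all genes rose and 0.188% fell (median log2 fold change -0.07). Cd36, a fatty acid receptor that also assists Tlr2 with Tlr6, had a log2 fold change of 1.76 ± 0.14 (SE, edgeR adjusted p = 0.0231). This call ended (adjusted p between 0.0608 and 0.144) without HFD replicate 2 or 3 or ND replicate 1. It also ended with the hepatocyte score in the model (adjusted p = 0.258), where 0% of all genes were called. The lipopolysaccharide co-receptor Cd14 was at 426, 603 and 479 CPM in HFD mice and at 797, 450 and 524 CPM in ND mice, with overlap (adjusted p = 0.650). Ly86 (MD-1), at 263 ± 21.1 and 277 ± 29.9 CPM, also overlapped, while its partner Cd180, a receptor relative without a TIR domain, was at 160 ± 6.05 CPM in HFD mice and 127 ± 12.9 CPM in ND mice without passing (0.139). Lbp, which carries lipopolysaccharide to Cd14, averaged 28.3 ± 2.27 and 31.7 ± 3.50 CPM (0.480).

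Of 19 chaperone and endosomal partner genes tested, none passed in edgeR or limma voom (median log2 fold change -0.03). With edgeR unadjusted p under 0.05, 2 stood higher and 4 lower, against 10.2% and 8.4% of all genes. DESeq2 called 2 higher and 3 lower, against 4.96% and 3.12% of all genes. Both counts of lower genes include the near-identical copies Rnaset2a and Rnaset2b, which need not be separate signals. The nucleic acid exonuclease gene Pld3, whose product limits Tlr9 ligands, was at 372 ± 18.9 CPM in HFD mice and 228 ± 42.9 CPM in ND mice without overlap (log2 fold change 0.70 ± 0.14, SE, adjusted p = 0.0784). Ctsk, a lysosomal protease, was at 5.34, 4.13 and 9.85 CPM in HFD mice and at 1.77, 1.53 and 1.59 CPM in ND mice (adjusted p = 0.0676). Rnaset2a, a lysosomal RNase that releases Tlr8 ligands in humans, stood lower at 63.0 ± 9.05 CPM in HFD mice and 85.6 ± 3.76 CPM in ND mice (adjusted p = 0.113), and its near-identical copy Rnaset2b makes the value uncertain. The receptor-processing proteases Ctsb and Ctss, the 2 most abundant of the list per length, had log2 fold changes of -0.03 ± 0.19 and -0.24 ± 0.12 (SE). Unc93b1, which carries the endosomal receptors from the endoplasmic reticulum and is named outside the rule after its values were seen, averaged 1143 ± 63.9 CPM in HFD mice and 1223 ± 157 CPM in ND mice.

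Of 22 adaptor and kinase genes tested, none passed in edgeR, limma voom or DESeq2 (median log2 fold change -0.02). At an edgeR unadjusted p under 0.05, 2 were higher and 2 lower, against 10.2% and 8.4% of all genes. The kinase-activating subunit Tab1 averaged 15.8 ± 1.75 CPM in HFD mice and 11.9 ± 1.34 CPM in ND mice, the interferon-pathway kinase Ikbke 94.0 ± 22.6 and 70.6 ± 2.91 CPM, and Irak2 105 ± 8.37 and 157 ± 46.1 CPM (edgeR adjusted p = 0.202, 0.25 and 0.235). The abundant Tab2 and Pik3ap1 had log2 fold changes of -0.02 ± 0.09 and 0.04 ± 0.10 (SE). The adaptor genes Myd88 and Ticam1, named outside the rule after their values were seen, averaged 59.7 ± 1.23 and 25.1 ± 2.41 CPM in HFD mice, and 58.7 ± 2.54 and 25.9 ± 1.43 CPM in ND mice (SD, n = 3).

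Of 15 genes for inhibitors of the signal, none passed in edgeR or limma voom (median -0.04). By edgeR unadjusted p under 0.05, 1 was higher and 3 lower, against 10.2% and 8.4% of all genes. DESeq2 called 3 lower, against 3.12% of all genes. The lowest p-values were those of Trafd1, at 293 ± 17.2 CPM in HFD mice and 387 ± 3.60 CPM in ND mice, of Nlrc5, at 108 ± 13.2 and 198 ± 63.1 CPM, and of Socs1, at 4.32 ± 1.23 and 9.39 ± 3.21 CPM (edgeR adjusted p = 0.0725, 0.155 and 0.156). Nlrc5 is also the activator of MHC class I genes, and Socs1 is induced by interferons. Inpp5d, the lipid phosphatase SHIP1, had a log2 fold change of 0.01 ± 0.08 (SE). Of 11 transcription factor genes, 10 were below 0 in log2 fold change (median -0.17), and none reached the threshold in edgeR or limma voom. By edgeR unadjusted p under 0.05, 2 were lower, against 8.4% of all genes. DESeq2 called 2 lower, against 3.12% of all genes. These were Jun, at 711 ± 115 CPM in HFD mice and 1025 ± 105 CPM in ND mice, and Irf8, at 363 ± 19.7 and 530 ± 100 CPM (edgeR adjusted p = 0.130 and 0.131). Rel was at 102, 128 and 110 CPM in HFD mice and at 252, 98.0 and 232 CPM in ND mice, overlapping through ND replicate 2, and Fos averaged 1082 ± 400 and 1414 ± 290 CPM (adjusted p = 0.295 and 0.507).

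Of 19 tested genes that Toll-like receptor signals induce, 18 lay below 0 in log2 fold change, with Ccl3 at 0.10 the exception, and the median was -0.61. None passed in edgeR or limma voom, while 11, all lower, had an edgeR unadjusted p under 0.05, against 8.4% of all genes. DESeq2 called 8 lower, against 3.12% of all genes. In 8 the groups did not overlap, all lower in HFD mice, as in 10.8% of all genes, and in the other 11 they overlapped. Without ND replicate 2, edgeR called 12 lower and none higher, where 5.90% of genes were called lower. Il1a, the interleukin 1 alpha gene, was at 104, 105 and 113 CPM in HFD mice and at 212, 152 and 199 CPM in ND mice (log2 fold change -0.80 ± 0.13, SE, edgeR adjusted p = 0.0560). Il10, which encodes an anti-inflammatory cytokine, was at 49.4, 51.8 and 55.5 CPM in HFD mice and at 168, 95.1 and 105 CPM in ND mice (-1.23 ± 0.22, adjusted p = 0.0676), and its log2 fold change was -0.58 ± 0.14 with the hepatocyte score in the model. Ier3, an early response gene, was at 55.0, 52.8 and 59.5 CPM in HFD mice and at 109, 78.7 and 121 CPM in ND mice (-0.88 ± 0.16, adjusted p = 0.0676). Nfkbia, the inhibitor induced by NF-kappaB, averaged 338 ± 20.1 CPM in HFD mice and 556 ± 110 CPM in ND mice (adjusted p = 0.0844), and Il1b 501 ± 20.9 and 758 ± 239 CPM with overlap (0.242). ND replicate 2 was the ND library nearest to the HFD libraries for Il1a, Il10, Ier3, Nfkbia and Il1b. Dendritic cell, T cell, NK cell and endothelial markers, from cells that also make some of these products, were below 0 in median log2 fold change as well (-0.67, -0.76, -0.67 and -0.90, with the type 1 markers standing for dendritic cells). Monocyte and neutrophil markers, from cells that make some of them too, had medians of 1.54 and 2.44. The part of these cells in the result was not tested.

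**Figure D5:**
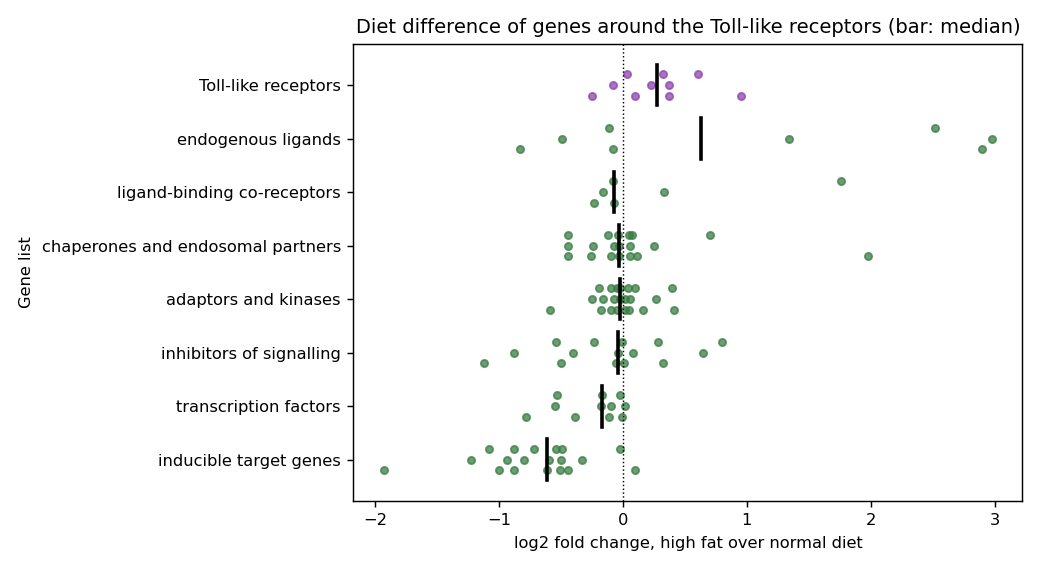
The log2 fold change, high fat over normal diet, of each tested gene (points) in the Toll-like receptor family (purple) and in 7 lists of genes around it (green), with a bar at each list's median. The receptors' median is 0.27 and that of the inducible target genes -0.61, with 18 of those 19 genes below 0.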

How the data were processed

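Poly(A)-selected RNA was sequenced in 6 libraries, taken as 1 mouse each because the design text counts mice, and groups came from the treatment labels. Replicates are numbered 1 to 3 in accession order, so equal numbers pair no mice. The authors deposited 1 table with raw read counts, a normalised signal (counts over 1 size factor per library, between 0.8852 and 1.1830), FPKM values, and their own log2 fold change and p-value with its adjusted p-value. Per the submitters' processing notes, the tools named are STAR and STAR-Fusion, HISAT2, StringTie, featureCounts, DESeq and edgeR, with the mm10 build. The sources used here do not give the role of each tool or the rule for reads that match several genes. All sample columns matched a label.

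Counts were tested with edgeR 4.0.16 in R 4.3.3 (TMM scaling, default filter by expression, robust quasi-likelihood test, Benjamini-Hochberg adjustment over 14361 genes, threshold 0.05). The SE is the log2 fold change over the square root of F, and intervals of 95% use the test's degrees of freedom. CPM are relative to TMM-scaled library sizes. The fit was tested on simulated data for this comparison (14363 genes), where 45% of 100 genes changed 2-fold and 86% of 100 changed 4-fold were recovered. No library repeated another: pairs of libraries had a chi-square of 13.7 to 25.21 times the degrees of freedom in HFD mice and 30.24 to 72.38 times in ND mice. The CV that counting alone gives was 1.65% to 5.26% in HFD mice and 1.81% to 6.14% in ND mice for the members other than Tlr5, and 13.7% and 14.0% for Tlr5.

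Members were taken by deposited symbol, and list genes by the GENCODE symbol of the identifier (14842 of 14918 matched). Members and lists were chosen with earlier results of these data known. Named pathway genes are the 3 of smallest p and the 2 of highest FPKM in each list. Alternatives were other scalings, other filters, DESeq2 1.42.0, limma voom 3.58.1, no robust prior, marker scores as covariates, and each library left out.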

Additional observations from a re-analysis of the deposited data

How the results depend on the processing

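Of 139 values under alternatives other than a left-out library, 123 were classed as the same. For a log2 fold change this means the same direction and side of the threshold. For a count it means an equal or near value, such as 125 against 91 genes called with total-count scaling. The count of genes called, 91, was 1206 in DESeq2, 515 with the macrophage score as a covariate and 0 with the hepatocyte score (1023 at an unadjusted p under 0.05). It ranged from 0 to 1385 with a library left out: 0 without HFD replicate 2 or ND replicate 1 (1962 and 2002 genes at an unadjusted p under 0.05) and 1385 without ND replicate 2. The count of receptors called, 0, was 2 in DESeq2, 1 with the macrophage score and 0 to 3 with a library left out, and that at an unadjusted p under 0.05, 3, was 5 with the macrophage score (21.2% of all genes) and 2 to 7 with a library left out (7 without ND replicate 2, with 28.9% of all genes). With the hepatocyte score it was 3, Tlr1, Tlr2 and Tlr9, with 7.12% of all genes. The 3 pathway genes called became 24 in DESeq2, 10 with the macrophage score, 0 with the hepatocyte score and 0 to 30 with a library left out.

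The log2 fold change of Tlr1 passed in DESeq2 (0.94) and with the macrophage score (0.89), and that of Tlr9 in DESeq2 (0.60). With a library left out the ranges were 0.84 to 1.12 for Tlr1, 0.52 to 0.74 for Tlr9, -0.30 to -0.18 for Tlr3, 0.14 to 0.59 for Tlr6, 0.16 to 0.66 for Tlr7, 0.03 to 0.47 for Tlr8, 0.20 to 0.56 for Tlr13, -0.12 to 0.20 for Tlr2, -0.02 to 0.32 for Tlr4 and -0.35 to 0.39 for Tlr5. The sign of Tlr4 changed with the hepatocyte score (-0.19), and that of Tlr5 in limma voom (0.01), with the hepatocyte score (0.83) and with the macrophage score (0.01). With the hepatocyte score Tlr2 was at 0.48, Tlr6 at 0.18 and Tlr9 at 0.99. The cause of these changes was not tested. Tlr5 was not tested under the filter of 5 CPM in 3 libraries. Shares of the summed level are equal as TPM and FPKM by construction and are not counted here. No paired analysis was possible because the labels give no replicate numbers, and those used here follow accession order. In HFD mice the CV of CPM was near that of counting alone for Tlr6 (6.31% and 5.26%) and Tlr3 (5.05% and 3.87%).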

Other observations

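The table also holds Tlr11 and Tlr12, endosomal receptors of mice for the profilin of protozoan parasites, which were not among the 10 genes above. Tlr11 (chromosome 14, 50357914 to 50363663) was at 11.5, 9.91 and 7.62 CPM in HFD mice and at 17.1, 14.4 and 16.8 CPM in ND mice. Its log2 fold change was -0.73 ± 0.18 (SE) with an edgeR adjusted p of 0.106, and it passed in DESeq2 (adjusted p = 0.00938) and in the authors' deposited table (0.00924). Tlr12 (chromosome 4, 128615446 to 128618619) was at 68.5, 71.1 and 66.2 CPM in HFD mice and at 80.7, 82.8 and 79.5 CPM in ND mice, with a log2 fold change of -0.24 ± 0.06 (SE) and adjusted p-values of 0.126 in edgeR and 0.0800 in DESeq2. In both genes all HFD libraries lay below all ND libraries, as in 10.8% of genes, and ND replicate 2 was the highest library for Tlr12. These values were picked after they had been seen.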
